A study of Mus musculus with 6 samples.

Results

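A BMAL1 chromatin immunoprecipitation sequencing (ChIP-seq) experiment on mouse retina gave 6 lists of called peaks, and 230 places in the genome carried a peak in every one of them. These places were found by merging the peaks of all 6 lists wherever they overlapped by at least 1 bp, with overlaps chained, and keeping each merged region that held at least 1 peak from each library. They made up 0.0952% of the 241559 merged regions. The peak calls themselves chose the regions, so enrichment in each library is given below as a description, with no test.

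The libraries were made with a rabbit antibody against BMAL1 from retinas of C57BL/6 mice without external treatment. Control 1 to 3 were wild type, and Bmal1 CKO 1 to 3 carried a conditional knockout of Bmal1. The labels give neither the driver of the deletion, nor the age at collection, nor the time of day, and state weaning of pups at postnatal day 20. Nothing in the labels says whether libraries of a genotype came from separate animals, so spreads between them may be technical. The peak lists hold no measure of the deletion or of retinal marker genes, so neither was checked here.

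BMAL1 is a core clock transcription factor that pairs with CLOCK and binds the E-box CACGTG at promoters and enhancers of rhythmic genes. ChIP-seq sequences the DNA that an antibody pulls down, and a peak is a place with more fragments than its surroundings. Satellite and ribosomal repeats are present in many more copies than a genome assembly shows, and reads from all copies can pile up on the few assembled ones. Such places recur in ChIP-seq whatever the antibody, and are often listed for removal. No repeat annotation was used here, so the part of repeats in the results was not tested.

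The 230 regions rarely lay at promoters, and the few promoter windows they touched are not a sample of the DNA of all 230. A promoter window here is the RefSeq sequence (GRCm38.p6) from 250 bases before to 50 bases after an annotated start. Only 5 of the 230 regions (2.17%) overlapped such a window, against 5.24% of all merged regions, and the 7 windows belonged to 5 genes. The 4 printed next were chosen as a tandem repeat, a pair that shares a run, and the window of a protein-coding gene. In Gm40237, a long non-coding RNA gene, the window at chr4:118547156-118547455 (plus strand) lay wholly inside the region chr4:118547119-118548791, and its capitals mark copies of its commonest 20-base run. Gm13822 (long non-coding, chr5:114922212-114922511, minus strand) and Gm51701 (long non-coding, chr9:123924898-123925197, plus strand) shared a run of 24 bases, which is in capitals in both. For Duxf3, a double homeobox gene in a family of repeated copies, capitals mark the bases inside the region (chr10:58233040-58233339, minus strand).
Gm40237: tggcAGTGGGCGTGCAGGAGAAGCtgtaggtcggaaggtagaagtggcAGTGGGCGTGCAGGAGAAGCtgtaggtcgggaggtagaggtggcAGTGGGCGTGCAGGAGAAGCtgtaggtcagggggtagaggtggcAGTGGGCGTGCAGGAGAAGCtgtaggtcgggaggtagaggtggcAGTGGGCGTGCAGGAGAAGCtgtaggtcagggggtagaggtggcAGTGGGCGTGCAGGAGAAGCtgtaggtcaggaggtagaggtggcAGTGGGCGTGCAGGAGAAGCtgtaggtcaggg
Gm13822: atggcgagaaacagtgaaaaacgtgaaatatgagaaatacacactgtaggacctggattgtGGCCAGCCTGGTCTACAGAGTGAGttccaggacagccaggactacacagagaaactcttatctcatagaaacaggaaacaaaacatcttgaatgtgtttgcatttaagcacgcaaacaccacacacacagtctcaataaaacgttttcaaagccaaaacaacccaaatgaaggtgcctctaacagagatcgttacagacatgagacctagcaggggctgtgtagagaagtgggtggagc
Gm51701: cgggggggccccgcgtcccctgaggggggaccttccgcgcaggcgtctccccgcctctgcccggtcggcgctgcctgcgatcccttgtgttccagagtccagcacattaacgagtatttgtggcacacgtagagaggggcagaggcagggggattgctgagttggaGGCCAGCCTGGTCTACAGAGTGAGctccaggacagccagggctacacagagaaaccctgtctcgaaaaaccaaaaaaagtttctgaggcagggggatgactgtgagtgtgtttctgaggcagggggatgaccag
Duxf3: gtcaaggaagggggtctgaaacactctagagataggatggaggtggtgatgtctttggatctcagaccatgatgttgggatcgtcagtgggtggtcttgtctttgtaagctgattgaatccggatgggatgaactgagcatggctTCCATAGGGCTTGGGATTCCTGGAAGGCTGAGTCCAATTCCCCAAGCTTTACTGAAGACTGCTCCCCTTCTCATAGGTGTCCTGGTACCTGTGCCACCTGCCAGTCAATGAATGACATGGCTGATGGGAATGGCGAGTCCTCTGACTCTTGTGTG

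The Gm40237 window held 7 copies of its 20-base run. Only 1.45% of the 32851 promoter windows in the table held 3 or more copies of any 20-base run. Of its 30-base words, 86.0% occurred at another place in the promoter table, the same window included. That share was 28% in the other Gm40237 window, 8.86% in those of Gm13822 and Gm51701, and 0% in those of Duxf3 and Gm15564. Any such repeated word was held by 12.3% of all windows. The 24-base run shared by Gm13822 and Gm51701 occurred, on either strand, in 8 windows of the table (0.0244%). Only exact matches were counted, and its copies in the rest of the genome were not, so it may be common there. The E-box CACGTG, which reads the same on both strands, was in none of the 7 windows and in 7.15% of all windows. Those 7 windows are few and in part overlap each other, and the absence of these letters says nothing of binding elsewhere in the regions.

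A pair of microRNA genes also lay at these regions, and their mature forms are shown because they identify the places. Mir6236 lay inside the region chr9:110281132-110281513 within the long non-coding gene Gm39429, and Mir101c lay close to the end of a run of regions at the start of chromosome 9. Capitals mark the seed, bases 2 to 8.
mmu-miR-6236: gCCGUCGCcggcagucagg
mmu-miR-101c: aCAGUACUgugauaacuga

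The libraries differed widely in depth, and their lists in length. With a pseudocount of 1 in the deposited fold and a Poisson p-value, the pair of values at each peak gave back a whole number of fragments at the summit (the stacked number) and the local background expected there. The lowest repeated background of a library served as its genome-wide level. For Control 1 to 3 this level was 3.46, 0.609 and 0.852 fragments per base, and for Bmal1 CKO 1 to 3 it was 2.78, 5.83 and 0.560, a range of 10.4 times. The lists held 179475 peaks in Control 1 and 138254 in Bmal1 CKO 2, and between 372 and 1444 in the other 4.

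The regions made up most of the short control lists and almost nothing of the long ones. Their peaks were 60.5% of the Control 2 list, 66.9% of Control 3, 47.4% of Bmal1 CKO 3 and 17.5% of Bmal1 CKO 1. They were 0.133% of Control 1 and 0.171% of Bmal1 CKO 2. When each list was ranked by −log10 q-value, however, its first 100 peaks included 82, 99 and 98 from these regions in Control 1 to 3 and 98, 83 and 99 in Bmal1 CKO 1 to 3. The strongest calls of both genotypes thus fell at the same 230 places, which is in part what the choice by shared calls fixes.

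Median deposited fold enrichment over the local background, the authors' value for each library, was 9.0, 9.41 and 8.94 in Control 1 to 3 and 8.53, 7.01 and 10.3 in Bmal1 CKO 1 to 3. The lowest and the highest of these both belonged to knockout libraries, so the groups overlapped. Within a region the highest fold was a median of 1.63 times the lowest. The lowest of the 6 folds was Bmal1 CKO 2's in 148 regions, and the highest was Bmal1 CKO 3's in 107. These are the deepest and the shallowest library.

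The number of fragments stacked at a summit changed far less between libraries than depth did. Its median over the regions was 88.0, 31.5 and 33.0 in Control 1 to 3 and 65.5, 99.5 and 34.5 in Bmal1 CKO 1 to 3. In a single region the highest number was a median of 3.14 times the lowest (quartiles 2.09 and 4.28). Bmal1 CKO 2 had a median of 2.44 times the fragments of Bmal1 CKO 3 at a region, and in all 230 regions the ratio was under the 10.4 times by which their genome-wide levels differed. In 33 regions all 6 libraries lay within 1.5 times of each other, and 16 of the 33 were in the run at the start of chromosome 9. No stacked number passed 396. The handling of duplicate reads is not given in the sources used here, and its part in these numbers was not tested. Every region also had to hold a peak in the 3 shallow libraries. The lowest stacked number was 9 in Control 2, 12 in Control 3 and 11 in Bmal1 CKO 3. Part of the narrow range between libraries may follow from that choice, which was not tested.

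The clearest case was chr2:98662162-98663036, in a gene desert of 3929 kb. The stacked number was 282, 284 and 284 in Control 1 to 3 and 275, 287 and 290 in Bmal1 CKO 1 to 3. The 6 libraries were nearly level, and the groups overlapped. Divided by each library's genome-wide level, the same region read 81.5, 466.0 and 333.3 in Control 1 to 3 and 98.8, 49.2 and 517.7 in Bmal1 CKO 1 to 3. High and low values there followed depth, with the 3 shallow libraries on top.

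A second case lay inside Gm33838, a long non-coding gene, at chr9:35305070-35305719. Stacked numbers were 270.0, 258 and 263 in Control 1 to 3 and 270.0, 268 and 249 in Bmal1 CKO 1 to 3. Its fold was 19.6, 24.7 and 24.6 in the controls and 20.1, 15.7 and 24.7 in the knockouts, so the groups overlapped in both measures. Summits of all 6 libraries lay within 7 bp.

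**Figure D1:**
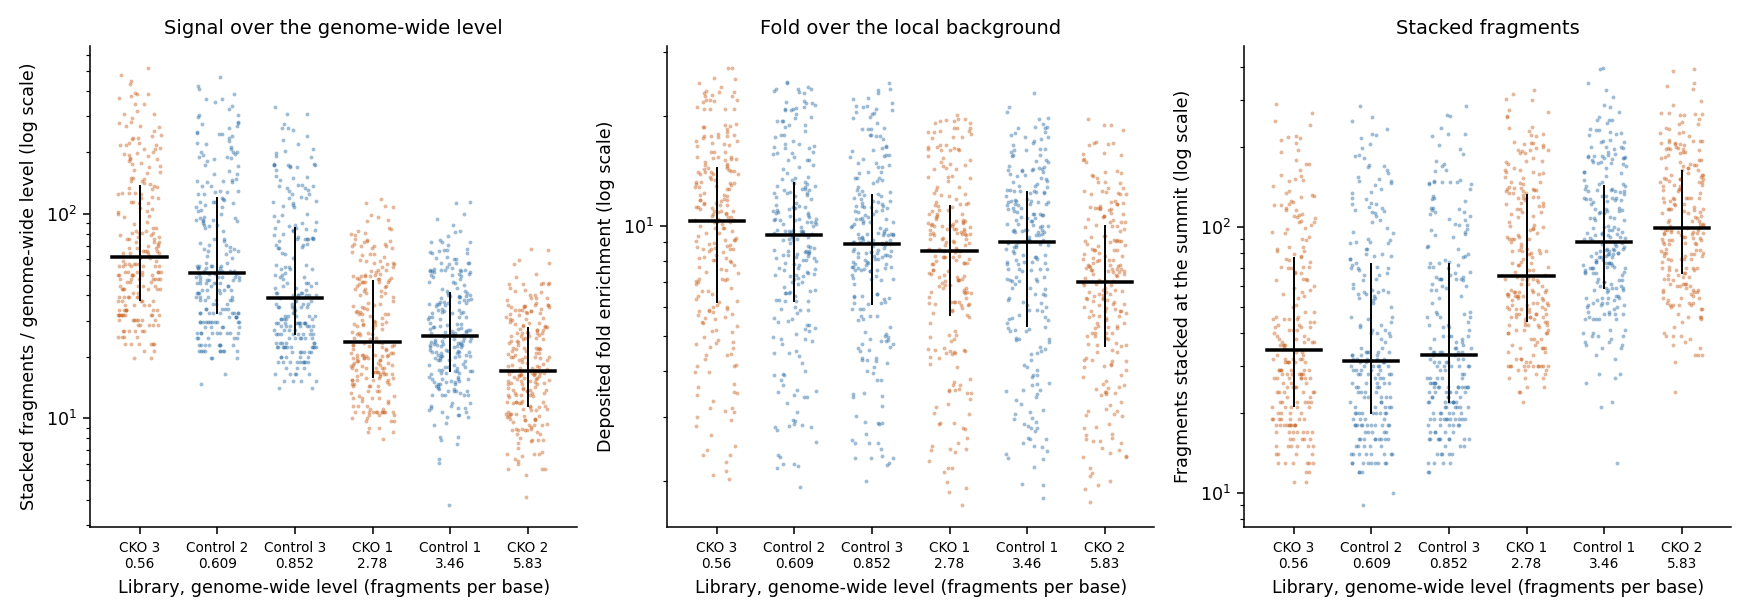
Points are the 230 regions, horizontal lines the medians and vertical lines the quartiles, for each library in order of its genome-wide level (control blue, Bmal1 CKO orange); the panels show, on log axes, stacked fragments over the genome-wide level, deposited fold over the local background, and stacked fragments. The first falls from a median of 61.6 in Bmal1 CKO 3 to 17.1 in Bmal1 CKO 2, while depth rises 10.4 times.

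Stacked fragments over the genome-wide level, called signal here, had medians of 25.4, 51.7 and 38.7 in Control 1 to 3 and 23.5, 17.1 and 61.6 in Bmal1 CKO 1 to 3. The mean of the library medians was 38.6 ± 13.1 in controls and 34.1 ± 24.1 in knockouts (SD, n = 3 each), a difference far inside the spread. The mean log2 difference, knockout minus control, was −0.35, and it became 0.05 without Bmal1 CKO 2. Bmal1 CKO 2 was the lowest of the 6 libraries in 202 regions and Bmal1 CKO 3 the highest in 173. The depths of the genotypes interleaved. From the shallowest library to the deepest, signal medians fell from each to the next in both genotypes alike, except that Control 1 was slightly above the shallower Bmal1 CKO 1. Part of this fall may follow from the measure and the choice. The genome-wide level is the divisor, and every region had to be called in the shallow libraries too. The lowest signal of any region was 19.6 in Bmal1 CKO 3, against 3.76 in Control 1 and 4.12 in Bmal1 CKO 2. No difference between genotypes was tested, since the regions were chosen by their calls.

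The signal of all 3 controls exceeded that of all 3 knockouts in 2 regions (0.87% of the 230), and the reverse held in none (0%). These 2 were looked up after the values were seen. At chr6:47672377-47673138, in the protein-coding gene Gm40365, signal was 33.8, 27.9 and 24.6 in Control 1 to 3 and 16.2, 19.4 and 23.2 in Bmal1 CKO 1 to 3. Near 4930467E23Rik, at chr8:19765538-19766112, it was 20.2, 24.6 and 24.6 in the controls and 16.2, 17.7 and 19.6 in the knockouts. In both, the gap between the nearest libraries of the groups was small beside the spread inside each group.

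The merged regions were wide. Their median width was 533.5 bp (quartiles 403.5 and 778, range 209 to 3979), against 273 bp over all merged regions and 483 bp for the 89 regions called in 5 libraries. A width above 1000 bp was reached by 38 of them (16.5%), against 1.60% of all merged regions. Merging more lists can only widen a region, so part of this follows from the rule. The total length was 160.001 kb. A single peak per library formed 197 regions, 33 held more, and at least 1 base was covered by all 6 libraries in 225.

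Summits fell close together. The distance between the outermost summits of the 6 libraries had a median of 41.5 bp (quartiles 11.2 and 141), and it was at most 50 bp in 120 regions and at most 100 bp in 144. In 10 regions it exceeded 500 bp. The farthest apart, 2292 bp, were in chr17:39843022-39846374, a region of 3353 bp that reaches Rn18s-rs5, a pseudogene related to the 18S ribosomal RNA gene. Stacked numbers there were 396, 171 and 150.0 in Control 1 to 3 and 316, 393 and 217 in Bmal1 CKO 1 to 3, on folds of only 1.96 to 2.54. The values were high in every library while the fold was among the lowest, over a local background of 63.4 times the genome-wide level (median of 6 libraries).

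The widest region, chr14:19415708-19419686 (3979 bp), lay 10.6 kb from the nearest annotated gene, Gm9637. Its stacked number was 222, 223 and 224 in Control 1 to 3 and 235, 227 and 212 in Bmal1 CKO 1 to 3, nearly level over the 6 libraries. Its folds were 3.11 to 3.50 and its local background 50.3 times the genome-wide level. At the other extreme, chr7:24730379-24730587 (209 bp), near Lypd11, held 35, 18 and 19 stacked fragments in the controls and 27, 38 and 20 in the knockouts. Those numbers were higher in the deeper libraries of either genotype.

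Raised local background was common. It was more than 2 times the genome-wide level in between 51.3% (Bmal1 CKO 2) and 77.4% (Bmal1 CKO 3) of the regions, and in 100 regions it was so in every library. Those 100 had a median width of 715.5 bp and a median lowest fold of 4.28, against 460.5 bp and 7.17 in the other 130. Another region lay within 100 kb of 57% of them and of 6.92% of the other 130. Pseudogenes were overlapped by 14 of the 100 and by 3 of the 130. Raised background and clustering were thus found together. Whether one accounts for the other was not tested, and a background counted over a window includes neighbouring peaks.

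**Figure D2:**
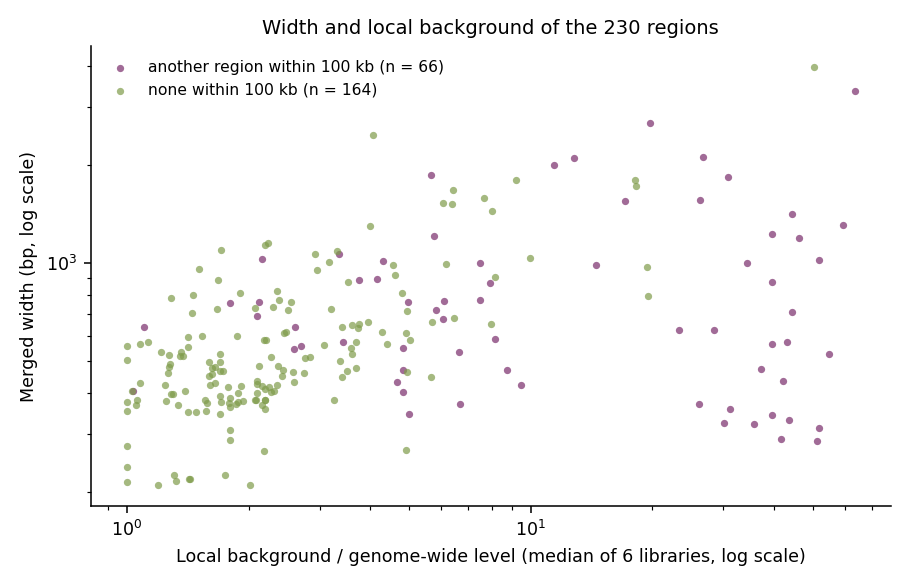
Each point is a region, with its local background over the genome-wide level (median of 6 libraries) across and its merged width in bp upward, both on log axes; purple points have another region within 100 kb (66) and green points none (164). Nearly all regions with a background over 20 times the genome-wide level are purple, and their widths run from under 300 bp to over 3000 bp.

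The regions lay in protein-coding genes and at their ends less often than all merged regions did. A protein-coding gene was overlapped by 70 of 230 (30.4%, 95% exact binomial interval 24.6 to 36.8), against 49.3% of all merged regions and 51.8% of the 70375 regions called in Control 1 and Bmal1 CKO 2 alone. Such genes cover 38.7% of the assembled span. Either end of a protein-coding gene lay within 1 kb of 7 regions (3.04%), against 9.27% of all merged regions and 17.6% of those called in the 2 longest lists alone. A distance over 100 kb to the nearest protein-coding gene was found for 61 (26.5%), against 17.8%. The 89 regions called in 5 libraries resembled the 230, with 30.3% in protein-coding genes and 3.37% at their ends. Among 1164 regions outside the 230 with a peak in Bmal1 CKO 1, the shares were 30.4% and 7.56%. These shares are set side by side without a test, and intervals cover counting error only, with clustered regions counted as if independent.

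**Figure D3:**
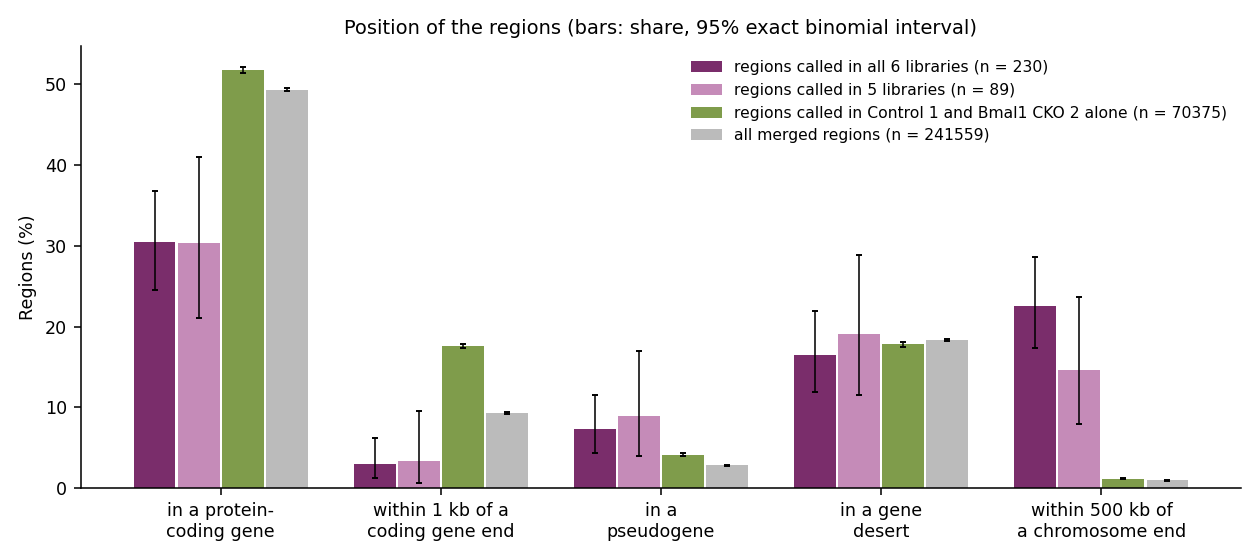
Bars give the percent of regions at each kind of position, with 95% exact binomial intervals, for the 230 regions called in all 6 libraries, those called in 5, those called in Control 1 and Bmal1 CKO 2 alone, and all merged regions. The 230 are lower at protein-coding genes (30.4% against 49.3% of all) and higher within 500 kb of a chromosome end (22.6% against 0.977%).

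The 7 regions at gene ends were few enough to name. They lay at LOC100504180, Duxf3, Taco1 (a translational activator of cytochrome c oxidase), Slc30a4 (a zinc transporter), Oasl1 (an oligoadenylate synthetase-like protein), Lars2 (mitochondrial leucyl-tRNA synthetase) and Asmt (the last enzyme of melatonin synthesis). The region at Oasl1, chr5:114922295-114922741, lies 34 bp from Gm13822 and overlaps the promoter window of that gene printed above. Its fold was 9.73, 19.7 and 21.7 in Control 1 to 3 and 14.7, 8.29 and 18.8 in Bmal1 CKO 1 to 3. The 2 deepest libraries gave the lowest folds and the groups overlapped. At Asmt, near the end of chromosome X (chrX:170672750-170674047), folds were 6.74, 11 and 12.4 in controls and 9.09, 6.19 and 11.7 in knockouts, again lowest in the deepest libraries. At Duxf3 all folds were low, 3.91, 3.39 and 3.79 in controls and 3.49, 3.11 and 4.42 in knockouts.

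The protein-coding genes that were overlapped had varied known roles. The 70 regions fell in 68 genes, and those with the highest lowest fold included Chl1 (a neural cell adhesion molecule), Kctd16 (an auxiliary subunit of GABA-B receptors), Cldn34d (a claudin), Aida, Zc3h7a, Cdk8 (the kinase of the Mediator complex), Apool (a mitochondrial inner membrane organiser), Spag17 (a component of the ciliary central pair), Mdga2 (a synaptic adhesion regulator), Cmss1, Gnb1l, Ank1 (erythrocyte ankyrin), Sos2 (a Ras exchange factor), 2210408I21Rik and Fbxw4. In Chl1, at chr6:103648921-103649388, folds were 18.5, 23.7 and 23.1 in Control 1 to 3 and 19.1, 16.9 and 25.4 in Bmal1 CKO 1 to 3. In Zc3h7a, at chr16:11143912-11144459, they were 19.1, 23.3 and 17.6 in controls and 19.5, 15.6 and 27.0 in knockouts. Knockout libraries gave both the lowest and the highest value in each gene, so neither separated the genotypes.

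Few genes of the clock and cone lists had a region nearby, at shares not below those of all genes. Of 22 core clock genes, none was overlapped and 1, Wee1 (a cell cycle kinase under clock control), lay within 100 kb, at 62293 bp. Of 16 cone genes, none was overlapped and 1, Pde6h (the inhibitory subunit of the cone phosphodiesterase), lay within 100 kb, at 39173 bp. None of 15 thyroid hormone genes lay within 100 kb. For all 21787 protein-coding genes, 487 (2.24%) had a region within 100 kb, beside 4.55% of the clock list and 6.25% of the cone list, each a single gene.

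Pseudogenes were overlapped by 17 regions (7.39%, interval 4.36 to 11.6), against 2.83% of all merged regions and 8.99% of those called in 5 libraries. The share was higher, 14.4%, among the 1164 others with a peak in Bmal1 CKO 1. With only peaks of fold 5 or more, 155 regions were called in all 6 libraries. Of these, 2.58% overlapped a pseudogene, no longer above the 2.83% of all merged regions. That 2.83% has no such limit on fold, and the share of all merged regions under the limit was not computed. Pseudogenes cover 1.18% of the span. Those overlapped included Rn18s-rs5, Gm20590, LOC115489104, Vmn2r-ps16 (of a vomeronasal receptor), Gm51590, Gm12628, Gm9353, Gm2666 and Mid1-ps1. Several regions lay in pseudogenes named after Pisd or beside it, a set picked out from the symbols after they were seen. Pisd encodes the mitochondrial enzyme that makes phosphatidylethanolamine, and regions lay in Pisd-ps1 on chromosome 11, in Pisd-ps2 on chromosome 17 (2 regions) and in the pseudogene Gm2420 beside Pisd itself on chromosome 5 (2 regions).

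Fold over the local background at these Pisd-related places was low in all libraries. Other overlapped pseudogenes differed, with folds of 9.55 to 13.2 at Gm51590 and of 1.95 to 2.54 at chr17:39843022-39846374, which reaches Rn18s-rs5. In Pisd-ps1, at chr11:3126963-3127584, folds were 2.60, 2.84 and 2.54 in Control 1 to 3 and 2.40, 2.39 and 3.16 in Bmal1 CKO 1 to 3, over a local background 28.4 times the genome-wide level. In Pisd-ps2, at chr17:3077100-3078087, they were 3.40, 3.66 and 2.89 in controls and 2.88, 2.86 and 3.16 in knockouts. In Gm2420, at chr5:32728844-32729376, which is 6.92 kb from Pisd, they were 5.24, 5.22 and 4.56 in controls and 3.58, 3.89 and 4.66 in knockouts. The groups overlapped at each place. Where copies are near-identical, reads could be placed on any of them, so a value at one copy is uncertain.

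Gene deserts, taken as gaps of at least 500 kb between protein-coding genes, held 38 regions (16.5%, interval 12.0 to 22.0). They held 18.4% of all merged regions and cover 29.7% of the span, so the 230 were no more often in deserts than other regions. Desert regions could be strongly enriched. At chr3:56575313-56575895, 391.6 kb from Nbea (a neuronal trafficking protein) in a gap of 1102 kb, folds were 19.7, 23.7 and 22.4 in Control 1 to 3 and 19.6, 16.7 and 22.8 in Bmal1 CKO 1 to 3. At chr8:15519633-15520117, 372 kb from Csmd1, they were 23.1, 19.4 and 16.3 in controls and 18.6, 19.6 and 22.6 in knockouts. In both places the groups overlapped.

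Single places of high enrichment formed the other end of the range. The lowest fold over the 6 libraries had a median of 6.32 and ran from 1.71 to 17.0, with 38 regions at 10 or more and 26 under 3. The highest belonged to chr1:195241421-195242029, 64.5 kb from Cr2 (a complement receptor) and near the last annotated coordinate of chromosome 1. Its stacked number was 184, 70.0 and 65 in Control 1 to 3 and 129, 183 and 79 in Bmal1 CKO 1 to 3, and its fold 21.2, 20.8 and 20.2 in controls and 19.2, 17.0 and 20.9 in knockouts. Deep libraries had more fragments, and folds were nearly level. Its summits lay within 11 bp of each other, and its local background was 2.44 times the genome-wide level (median of 6 libraries). The region chr2:3050018-3050750, the first on chromosome 2, had folds of 17.5, 16.8 and 19.1 in controls and 19.3, 18.9 and 17.6 in knockouts. Local background there was 2.31 times the genome-wide level, so it was raised at both places.

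The regions were clustered along chromosomes. Another region lay within 1 Mb of 99 (43.0%), within 100 kb of 66, within 10 kb of 52 and within 5 kb of 48. The share within 1 Mb was 25.2% with only peaks of fold 5 or more, 26.9% with the same number of peaks from each list, and 22.4% with regions within 100 kb counted once. The gap to the nearest other region had a median of 1899 kb and ran from 85 bp to 47.6 Mb. Among the 89 regions called in 5 libraries, 40.4% had another of the same kind within 1 Mb, and 86.3% did among the larger set of 1164 others with a peak in Bmal1 CKO 1. With regions less than 100 kb apart counted as 1 place, the 230 came down to 183 places, of which 164 held a single region and 19 held the other 66. Chained at 1 Mb, 14 clusters of 3 or more held 67 regions (29.1%).

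**Figure D4:**
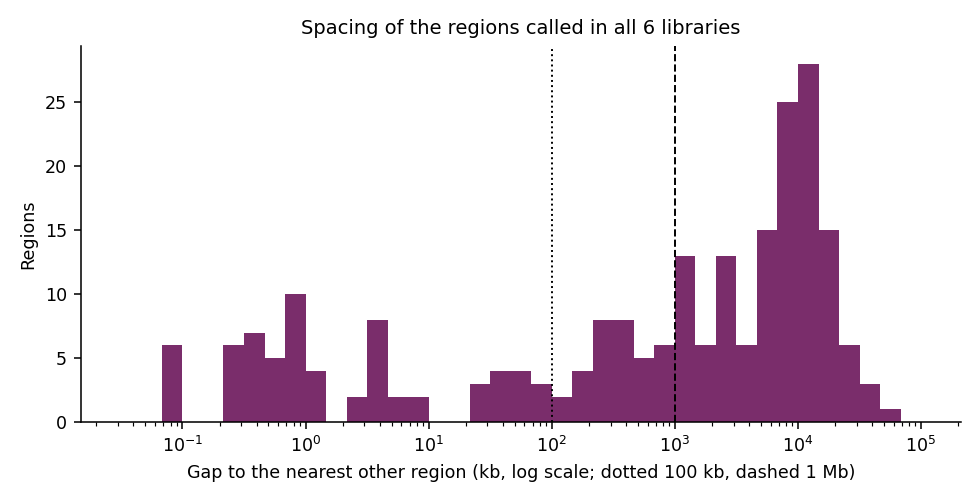
The histogram counts regions by the gap to the nearest other of the 230 in kb on a log axis, with dotted and dashed lines at 100 kb and 1 Mb. Gaps are spread over the whole range, with 48 of 230 within 5 kb, 66 within 100 kb and 99 within 1 Mb.

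The largest cluster held 17 regions at chr9:2999927-3259052, the beginning of the assembled chromosome 9. All but 1 lay within its first 40 kb, a stretch with Mir101c as nearest gene and no protein-coding gene. Folds over the 17 ran from 1.75 to 11.1, and the local background had a median of 41.7 times the genome-wide level. The region chr9:3020527-3020838 held 131, 129 and 146 stacked fragments in Control 1 to 3 and 148, 139 and 124 in Bmal1 CKO 1 to 3. These were nearly level, with folds between 1.75 and 2.24. The last of the 17, at chr9:3258675-3259052, stood apart with a local background of 1.94 times the genome-wide level and a lowest fold of 7.05.

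Chromosome 11 carried 6 regions at chr11:3100293-3194234, again at the start of the assembly. They spanned Pisd-ps1 and Sfi1, a centrosome protein gene, with folds from 1.71 to 3.97 over a background of 27.5 times the genome-wide level. In Sfi1, at chr11:3168545-3169116, folds were 2.74, 2.81 and 2.31 in controls and 1.71, 2.00 and 3.48 in knockouts. Knockout libraries again gave the lowest and the highest. That region held the lowest fold of all 230.

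Clusters of 5 lay on chromosomes 2, 8 and 9. That at chr2:181917211-182013159, by Gm40034 and Gm14496, reached the highest coordinate of any peak or gene on its chromosome, with folds from 3.55 to 15.1. That at chr8:19720132-20154100 lay by 4930467E23Rik and other predicted genes, with folds from 3.81 to 12.7. That at chr9:123461735-124258029 ran from Lars2 to Gm39469 past Gm51701. A compact one lay at chr2:98662162-98667381, with 4 regions in 5.22 kb and a local background of 39.5 times the genome-wide level.

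**Figure D5:**
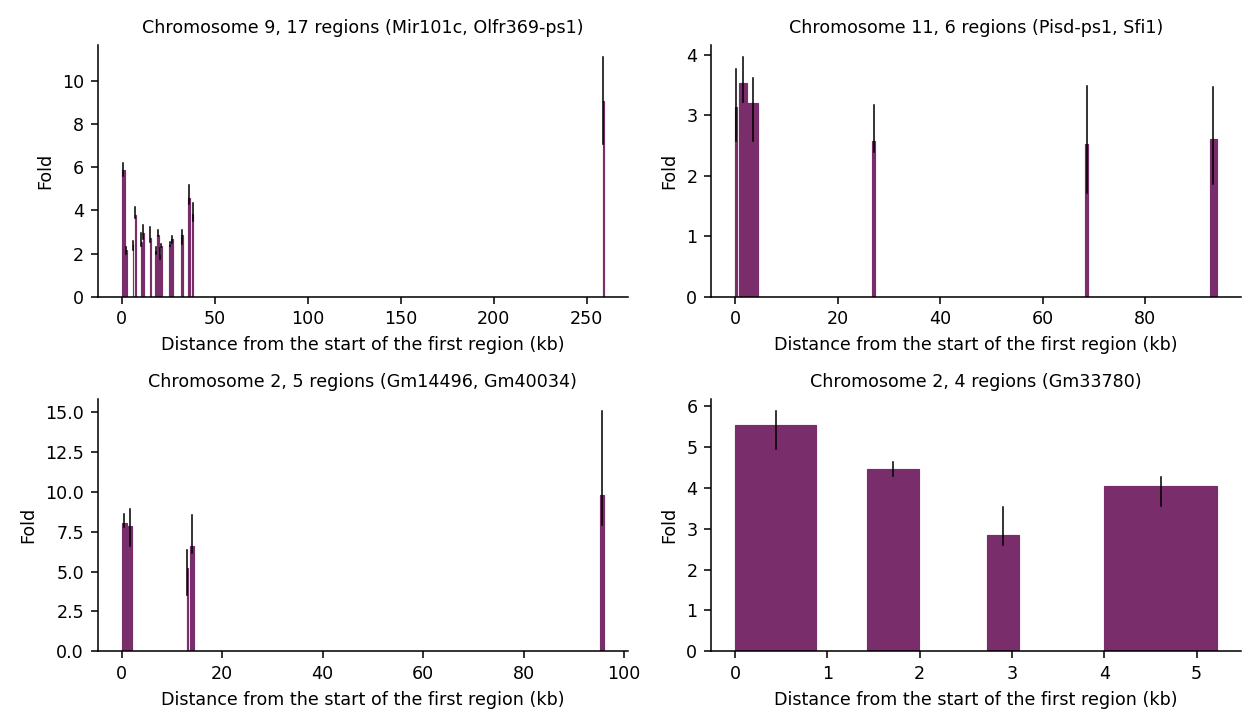
Each panel is a cluster, with distance in kb from its first region across and fold upward; bars are regions drawn at their width and at the median fold of 6 libraries, and vertical lines run from the lowest to the highest library. In the chromosome 9 panel 16 regions stand within the first 40 kb with median folds under 6, and the last one stands apart at a higher fold.

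Many regions lay near the ends of assembled chromosomes. Measured from the lowest or highest coordinate of any peak or gene on a chromosome, 52 regions (22.6%, interval 17.4 to 28.6) lay within 500 kb of an end, against 0.977% of all merged regions and 14.6% of those called in 5 libraries. Of the 1164 others with a peak in Bmal1 CKO 1, 8.59% lay this near an end. The 500 kb window was chosen after the positions were seen. Some of the 52, chr2:3050018-3050750 among them, themselves set the coordinate they were measured from. The 52 lay at 24 places on 15 chromosomes, 34 of them off chromosome 9. By the lower end there were 37 regions on 12 chromosomes and by the higher end 15 on 8 chromosomes. In most mouse chromosomes the lower end is the centromeric one, next to satellite repeats that the assembly lacks. Local background was over 2 times the genome-wide level in every library at 41 of the 52, and only 4 overlapped a protein-coding gene.

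Chromosomes differed in number. Chromosome 9 held 26 regions (21.4 per 100 Mb of span), of which 17 were at its start, followed by chromosome 2 with 19, chromosome 8 with 18 and chromosome 11 with 15. Chromosome 5 held 5 and chromosome 14 held 4. The mitochondrial genome held none. Chromosome Y held 4 (1.74%), against 0.0468% of all merged regions, 2.25% of those called in 5 libraries and 1.63% of the 1164 others with a peak in Bmal1 CKO 1. They included the pseudogene Mid1-ps1 at chrY:90763336-90764009, with folds of 2.80, 5.25 and 4.35 in Control 1 to 3 and 4.48, 3.04 and 4.43 in Bmal1 CKO 1 to 3, lowest in the 2 deepest libraries.

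At the edge of the choice, regions were kept by their calls, with no limit on fold. The lowest −log10 q-values inside were 2.09 near 4930467E23Rik, 2.53 in Eppk1 (epiplakin, a cytoskeletal linker) and 2.80 at Slc30a4, where the lowest folds were 4.14, 4.22 and 3.14. Those were below the lowest folds of the strongest regions left out, which cover only the 5 libraries that called them. The fold in the missing library is not known, so the comparison cannot show whether fold separated kept from left-out regions. Among regions called in 5 libraries, chr18:68691944-68692320 (missing in Control 3) had a lowest fold of 10.3, chr6:114565340-114565721 (missing in Control 2) of 8.19, and chr16:98022965-98023440 (missing in Bmal1 CKO 3) of 7.14. Of the 89, 37 lacked Control 3, 23 lacked Bmal1 CKO 3 and 19 lacked Control 2, the 3 shallowest libraries, while 5 lacked Bmal1 CKO 1, 3 Bmal1 CKO 2 and 2 Control 1.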

How the data were processed

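BMAL1 ChIP-seq of mouse retina was represented by 1 list of called peaks per library, 3 wild-type (Control) and 3 Bmal1 CKO. Per the submitters' processing notes, Trim Galore, Bowtie2, MACS2 and the build mm10 were used. For versions, parameters, duplicate handling and any input, the record is: not given in the sources used here. Each list was matched to its library through the series record, although the number in its name is not the one in the sample title. For each peak the authors deposited a whole-number score, the fold (a ratio over local background), the −log10 p-value and the −log10 q-value, and a summit. Peaks were called per library, and values of a library are relative to itself.

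Peaks of all 6 lists were merged at 1 bp overlap. The fold and p-value were solved for stacked fragments and local background, for all peaks of the short lists, all peaks in the regions, and 3000 drawn peaks of each of the 2 longest lists. Only whole numbers of fragments were tried. The best one gave the p-value back within 0.005 in −log10 for 100.0% of the peaks of the short lists and of those drawn. The method was tested on data simulated under the same formula, at backgrounds below the highest ones in the regions. That does not test whether the formula holds. Steps of background of 0.02 fragments matched fragments of 200 bp over 10 kb. If that reading fails, stacked numbers and signals do not hold, while folds and positions do. Where a library had several peaks in a region, the 1 with the highest fold was used.

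Genes came from a RefSeq table of GRCm38.p6, whose coordinates are those of mm10; 348 rows on scaffolds were left out of it, leaving 49632 genes, of which 10509 were pseudogenes. The table has no strand, so both gene ends were used. No genome or repeat annotation was used here. Named regions are the 10 with the highest lowest fold, up to 15 at protein-coding genes and 10 at pseudogenes by the same order, the 3 largest clusters, the 3 widest and narrowest, and the 3 nearest each side of the calling limit. Regions at gene ends, near chromosome ends, with level stacked numbers or with separate groups were named after their values were seen. The regions, gene lists and rules were chosen with earlier results of these data known. Shares have 95% exact (Clopper-Pearson) intervals, and no p-value was computed. Python 3.11.15, NumPy 2.4.6, pandas 2.3.3, SciPy 1.17.1 and matplotlib 3.10.9 were used. Alternatives covered merging, fold and q-value limits, list length, left-out libraries, windows and gaps.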

Additional observations from a re-analysis of the deposited data

How the results depend on the processing

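No paired analysis was possible because the results come from no test. With peaks taken in the same number from each list, 130 regions remained, with a median width of 604.5 bp and 26.9% with a neighbour within 1 Mb. Joining gaps up to 1000 bp widened the median to 674 bp, and merging without the 2 longest lists narrowed it to 418.5 bp. With only peaks of fold 5 or more, 2.58% of regions overlapped a pseudogene and 25.2% had a neighbour within 1 Mb. Wider or narrower definitions moved their own shares: 39.6% overlapped any gene that is not a pseudogene, 13.0% lay within 5 kb of a gene end, and 14.8% within 5 kb of a pseudogene. Deserts held 30% at a gap of 250 kb and 9.57% at 1 Mb. Neighbours were found for 28.7% within 100 kb and 50.4% within 2 Mb, and for 22.4% within 1 Mb when regions within 100 kb were counted once, an alternative chosen after seeing the data.

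Leaving out each library in turn gave 233 to 267 regions, median widths of 498 to 533 bp, 29.9% to 31.3% in protein-coding genes, 2.99% to 3.21% at gene ends, 6.83% to 8.66% in pseudogenes, 16.1% to 17.5% in deserts and 42.3% to 48.8% with a neighbour. The log2 difference in signal ran from −0.83 to 0.05, and its sign turned only without Bmal1 CKO 2. With the deposited fold in place of signal it was −0.10. The 3 shallow libraries limit which regions could be called in all 6.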

Other observations

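Gene families near the regions were counted by the symbol of the nearest protein-coding gene. Predicted genes with Gm symbols were nearest to 21 of the 230 (9.13%), against 3.99% of all merged regions and 22.5% of those called in 5 libraries. Olfactory receptor genes were nearest to 4 (1.74%, against 0.891% of all merged regions and none of those called in 5 libraries). Type 1 vomeronasal receptor genes were nearest to 3 (1.30%, against 0.358% and 3.37%) and type 2 to 1 (0.435%, against 0.302% and 2.25%). Zfp zinc finger genes were nearest to 6 (2.61%, against 1.82% and 3.37%). No region had a Pramel, defensin, Speer or Skint gene as its nearest, and these were nearest to only 0.176%, 0.0695%, 0.0675% and 0.0402% of all merged regions, while Speer genes reached 4.49% of those called in 5 libraries. None of these shares was tested.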
